A study of Mus musculus with 6 samples.

Results

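The cytosolic ribosomal protein genes were taken as every probe whose platform symbol is Rpl or Rps followed by a number, with or without the endings a, l, x or y, together with Rplp0, Rplp1, Rplp2 and Rpsa. This gave 60 genes of 19057 named on the array, or 89 of its 45281 probes. Of these, 72 probes of 52 genes were tested, which means that their detection p, which sets a probe against the array's own negative control beads, was under 0.05 on at least 3 of 6 arrays. All 72 were in fact detected on all 6 arrays. Symbols outside the naming rule, such as ubiquitin fusions, are treated only as a related list, and Rpl5, Rpl11, Rps27, Rps27a, Rpl10 and Rpl10l, for which no probe matched, were not analysed here.

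Each cytosolic ribosome joins a small and a large subunit, built from ribosomal RNA and from the proteins of the Rps and Rpl genes. Most of these proteins are present once per ribosome, their genes are transcribed in every cell, and the mRNAs are among the most abundant of a growing cell. Many start with a run of pyrimidines, the terminal oligopyrimidine tract, through which mTOR signalling controls their translation. In the mammary epithelium, ribosome production is known to follow growth and milk protein synthesis.

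The study compared cultured mammary epithelial cells, the lining of the milk-producing and milk-carrying parts of the gland, of Jarid1b+/+ (WT) and Jarid1b-/- (KO) genotype. Jarid1b, now named Kdm5b, encodes a histone H3 demethylase that acts on lysine 4, whose methylation marks active promoters. Total RNA of 3 WT and 3 KO early-passage cultures, lettered as pairs A, B and C, was hybridised to Illumina mouse bead arrays. The labels name no treatment, strain, animal age or construction of the Jarid1b allele, and leave unstated whether the cultures stem from separate animals. The p-values therefore measure the spread between these samples only, which may be technical.

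The brightest Kdm5b probe had a normalised log2 intensity of 6.85 ± 0.24 in the WT cultures (SD, n = 3) and 4.39 ± 0.05 in the KO cultures (SD, n = 3). It was not detected on any KO array, and was at least 4.94-fold lower there (limma adjusted p = 0.0155). Per array 17033 to 18686 probes were detected, 72 to 76 of them ribosomal protein probes. Of 15 epithelial marker genes 14 were tested, and Epcam, a defining one, did not meet the detection rule. With so few arrays the precision of each value is limited, and in bulk RNA fewer cells of a type and less RNA per cell cannot be told apart.

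The start sites of these genes are shown because the pyrimidine tract is the feature the family is best known for. RefSeq windows of GRCm38.p6, from 250 bases before to 50 bases after the annotated start, were matched for 49 of the 60 symbols. The lines below give 30 bases before and 20 bases after the start of the 4 tested genes with the longest runs of C and T over the start. The genes of the probes with the highest and the lowest KO minus WT log2 difference follow. These are Rpl38, at its dimmer probe only (0.56, against -0.02 at the brighter probe), and Rpl22. Capitals mark the run that covers or touches the start where it has at least 5 bases, which at Rpl22 it has not.
Rpl7a, chr2:26910777-26910826, plus strand: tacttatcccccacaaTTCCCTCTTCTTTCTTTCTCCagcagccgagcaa
Rpl27a, chr7:109519165-109519214, plus strand: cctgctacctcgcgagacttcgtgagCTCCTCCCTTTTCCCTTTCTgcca
Rpl34, chr3:130730318-130730367, minus strand: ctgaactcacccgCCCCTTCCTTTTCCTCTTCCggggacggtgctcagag
Rpl35, chr2:39005112-39005161, minus strand: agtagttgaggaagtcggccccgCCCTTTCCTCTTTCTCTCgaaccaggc
Rpl38, chr11:114668550-114668599, plus strand: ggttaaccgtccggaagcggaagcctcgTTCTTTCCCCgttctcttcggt
Rpl22, chr4:152324406-152324455, plus strand: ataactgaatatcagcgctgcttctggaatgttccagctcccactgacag

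The run was 21 bases long for Rpl7a, 20 for Rpl27a and for Rpl34, 18 for Rpl35 and 10 for Rpl38. At Rpl22 it was 1 base, and that window is 1 of 2 listed for the gene. A run of at least 5 bases lay over the start of 18 of 49 ribosomal protein genes (36.7%), against 5026 of 27025 genes with a window (18.6%). A gene with several windows counted where any of them held the feature. Runs that did not touch the annotated start were not counted, so this is not the share of mRNAs with the tract. The letters TTCCGG, the core bound by ETS factors, occurred on either strand in 27 of the 49 genes (55.1%) and in 16.7% of all genes. AAGATGG, found in YY1 sites, occurred in 7 genes (14.3%), against 7.28% of all. TATAAA, the TATA box, occurred in 5 (10.2%), against 15.7%. These shares describe letters in the windows and show no binding.

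Ribosomal protein probes were among the brightest on the arrays. Of the 100 brightest tested probes, 22 were ribosomal protein probes, which is 30.6% of the 72, where the 100 are 0.558% of all tested probes. A mean log2 level above 12 was reached by 44 of the 72 (61.1%), against 1.53% of all tested probes. Brightness depends on the probe as well as on the RNA, so it gives no order of mRNA amounts between genes.

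Rplp1, a protein of the acidic stalk that recruits elongation factors, had the highest mean. Its log2 level was 14.42, 14.27 and 14.42 in WT cultures A, B and C and 14.37, 14.42 and 14.42 in KO. It was the brightest probe of the whole array on 4 of 6 arrays, and its KO and WT values overlapped. The brighter Rpl38 probe read 14.37, 14.18 and 14.22 in WT and 14.32, 14.18 and 14.22 in KO, so that the cultures of pairs B and C matched to the 2 decimals given. The other probes among the 5 with the highest means were Rpl9 and Rpl41 of the large subunit, at 14.25 and 14.22, and Rps9 of the small subunit, at 14.21. Quantile normalisation gives every array the same set of values, so at this end of the scale a probe can move only by changing places with other bright probes.

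The dimmest tested probes were the second Rps19 probe (mean 4.85), Rps4l (5.37), the second Rpl29 probe (5.71), the third Rps24 probe (6.05) and the third Rpl21 probe (6.13). All but Rps4l belong to genes that have a brighter probe, and probes of a gene are numbered here from the brightest. Many ribosomal protein genes have processed pseudogenes and near-identical copies, and which of them a probe binds was not tested.

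**Figure D1:**
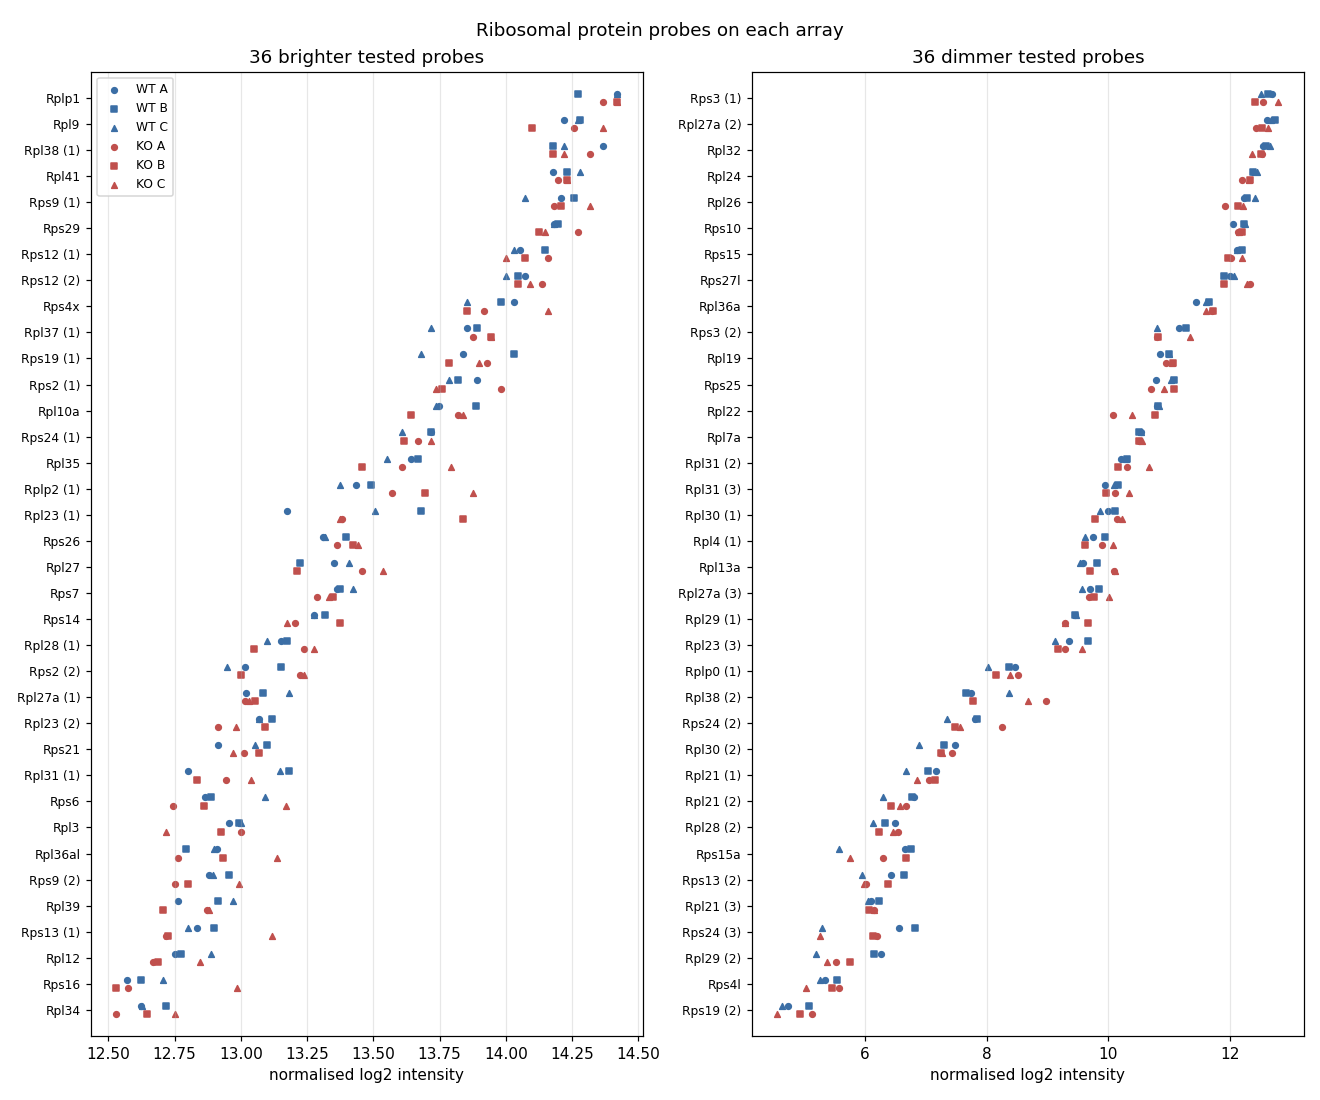
Normalised log2 intensity (horizontal axis, one scale per panel) of the 72 tested ribosomal protein probes on each of the 6 arrays, with WT in blue and KO in red and a marker shape for each pair; a number in brackets ranks the probes of a gene by brightness. The blue and red points of most probes lie close together, and the widest scatter is among the dimmer probes, such as the second Rpl38 probe and the third Rps24 probe.

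Of the 17 probes left untested, 10 were detected on 0 arrays and 7 on 1 or 2. They leave 8 genes with no value, namely Rpl14, Rpl17, Rpl39l, Rpl3l, Rpl6, Rps20, Rps23 and Rpsa. Rpl39l, a copy of Rpl39 known from the male germ line, was detected on 0 arrays. Rpl3l, the form of Rpl3 made in heart and skeletal muscle, was detected on 2 KO arrays and 0 WT arrays, with log2 values of 4.26, 4.34 and 4.27 in WT and 4.44, 5.19 and 4.49 in KO. All but the value of KO culture B lie near the level of undetected probes. The brighter Rpsa probe, for the laminin-binding protein of the small subunit, was detected on 2 WT arrays and 0 KO arrays. Rpl6, Rpl14, Rpl17, Rps20, Rps23 and Rpsa are known as genes transcribed in every cell, so for them an undetected probe gives no level of the mRNA.

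Ribosomal protein probes took about the same part of the signal in both genotypes. Their share of the background-corrected intensity summed over all detected probes was 7.22%, 7.61% and 7.04% in WT cultures A, B and C and 7.07%, 7.78% and 7.28% in KO. The mean was 7.29% ± 0.29 for WT (SD, n = 3) and 7.38% ± 0.36 for KO (SD, n = 3), and the groups overlapped. The share was lower in KO in pair A and higher in pair C, while in pair B it was higher with background correction and lower without it (6.16% in WT and 6.03% in KO). This is a share of signal on each array and does not measure the amount of ribosomal protein mRNA per cell.

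**Figure D2:**
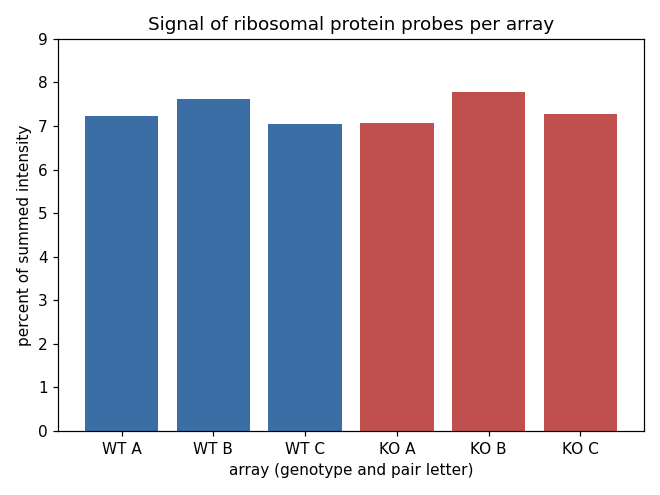
Percent of the summed background-corrected intensity that the ribosomal protein probes hold on each array (vertical axis from 0), with WT bars in blue and KO bars in red. The 6 bars lie between 7.04% and 7.78%, and the WT and KO bars overlap.

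The comparison of KO with WT asks whether loss of Jarid1b changes the signal of these genes. No ribosomal protein probe passed the test. With limma, 0 of 72 had an adjusted p under 0.05, by Benjamini-Hochberg adjustment over all 17920 tested probes, of which 3 passed (0.0167%). At an unadjusted p under 0.05 the count was also 0 of 72, against 543 of all tested probes (3.03%). With the pair letters entered as a replicate block, the counts of ribosomal protein probes were again 0 and 0, against 0.0223% and 8.08% of all tested probes.

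The log2 difference, KO minus WT, had a median of -0.01 over the 72 probes and of -0.02 over all tested probes. It was above 0 for 32 of the 72 (44.4%), against 46% of all tested probes. The 95% interval of the difference lay within 2-fold either way for 69 of the 72 (95.8%), against 78% of all tested probes. Within 1.5-fold it lay for 59 of them (81.9%), against 27.6%. When 1 array was left out, the count of intervals within 2-fold was 67 or 68 of the 72, against 65.5% to 73.7% of all tested probes. With the replicate block it was 71 of the 72 (98.6%), against 92%. The exceptions with all arrays and no block were the second Rpl29, the second Rpl38 and the third Rps24 probe. The median distance from the difference to the end of its interval was 0.39 for ribosomal protein probes and 0.54 for all tested probes. Arrays differed little for these probes, with a median SD over all 6 arrays of 0.12, against 0.28 for all tested probes. Among probes with a mean level above 12, the median SD was 0.09 for 44 ribosomal protein probes and 0.18 for 230 others. At that level the interval lay within 1.5-fold for 40 of the 44 (90.9%) and for 139 of the 230 (60.4%).

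Rpl7a, a large subunit protein, varied least. Its log2 level was 10.53, 10.5 and 10.53 in WT cultures A, B and C and 10.51, 10.51 and 10.56 in KO. The difference was 0.00 (SE 0.15), with a 95% interval from -0.35 to 0.36. Its 6 values spanned 0.06 in all.

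**Figure D3:**
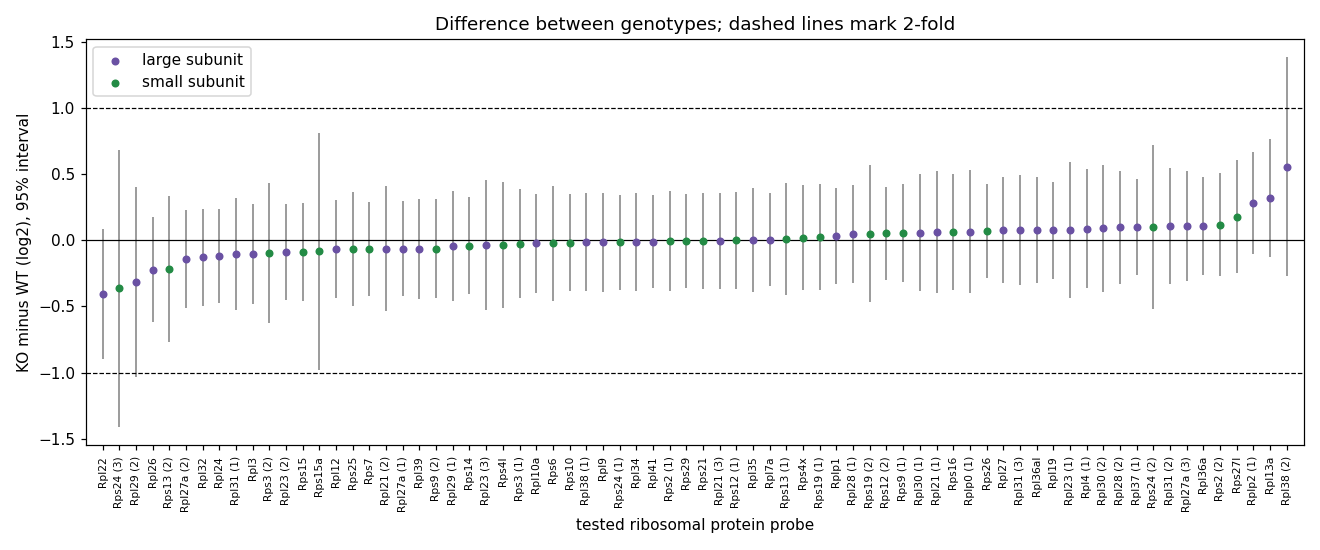
KO minus WT log2 difference of each tested ribosomal protein probe in ascending order (points, large subunit in purple and small subunit in green) with its 95% interval from limma (lines) and dashed lines at 2-fold. All intervals include 0, from Rpl22 at -0.41 on the left to the second Rpl38 probe at 0.56 on the right.

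In the large subunit, 21 of 43 probes were above 0 and 22 below. Rpl22, which binds RNA outside the ribosome as well and is known to hold down its paralogue Rpl22l1 in mouse cells, had the lowest difference and the smallest p. Its log2 level was 10.80, 10.81 and 10.83 in WT and 10.08, 10.76 and 10.39 in KO. The WT cultures were nearly equal, and all 3 KO cultures lay below them, KO culture B only just. The difference was -0.41 (SE 0.21, 95% interval -0.90 to 0.08), or 0.754-fold. The unadjusted p of limma was 0.0906, and the adjusted p was 1.0. Without KO replicate B it was -0.58 (adjusted p = 0.742), and without KO replicate A -0.24. Rpl22l1, tested in the related list, read 4.71, 4.53 and 4.85 in WT and 4.80, 4.54 and 5.03 in KO, near background and with overlap.

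Rpl38, which in mouse embryos is needed for translation of Hox mRNAs, gave different values at its probes. Its second, dimmer probe read 7.75, 7.66 and 8.36 in WT and 8.98, 7.77 and 8.68 in KO. KO culture A was highest, and the groups overlapped. The difference was 0.56 (SE 0.35, 95% interval -0.27 to 1.38), against -0.02 at the brighter probe. It was 0.91 without KO replicate B and 0.30 without KO replicate A, with adjusted p = 0.730 and 1.0. This was the 1 gene whose tested probes differed by over 0.5 in the log2 difference.

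The acidic stalk proteins Rplp0, Rplp1 and Rplp2 had differences of 0.07 (SE 0.20), 0.03 (SE 0.15) and 0.28 (SE 0.16). Rplp2 read 13.43, 13.49 and 13.38 in WT and 13.57, 13.69 and 13.87 in KO. All 3 KO cultures lay above all WT cultures, and the limma adjusted p was 1.0 (unadjusted, 0.130). Under 5 other ways of processing, among them the authors' value table (difference 0.28), its unadjusted p fell under 0.05, and its adjusted p stayed at 0.614 or higher in every setting tried.

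Rpl13a, which in human cells also leaves the ribosome to silence inflammatory mRNAs, read 9.58, 9.81 and 9.53 in WT and 10.09, 9.69 and 10.10 in KO. KO cultures A and C were above all WT cultures, and KO culture B was not. The difference was 0.32 (SE 0.19, 95% interval -0.13 to 0.77). Rpl26, known in human cells for binding the p53 mRNA, read 12.23, 12.27 and 12.41 in WT and 11.91, 12.13 and 12.21 in KO. The groups did not overlap, and the difference was -0.22 (SE 0.17), or -0.13 without KO replicate A.

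The second Rpl29 probe read 6.26, 6.15 and 5.19 in WT and 5.53, 5.75 and 5.38 in KO. WT culture C lay below all KO cultures, and the other WT cultures above them. The difference was -0.31 (SE 0.30), between -0.65 without WT replicate C and -0.12 without WT replicate A, and -0.04 (SE 0.18) at the brighter Rpl29 probe. Rpl27a had its lowest difference, -0.14 (SE 0.16), at the second probe, and 0.11 (SE 0.18) at the third. Rpl36a and its autosomal copy Rpl36al had differences of 0.11 (SE 0.16) and 0.08 (SE 0.17). Rpl39, which lines the exit tunnel, had a difference of -0.06 (SE 0.16).

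In the small subunit, 11 of 29 probes were above 0 and 18 below, between -0.36 at the third Rps24 probe and 0.18 at Rps27l. Rps27l, a copy of Rps27 induced by p53, read 11.997, 11.906 and 12.066 in WT and 12.332, 11.903 and 12.274 in KO. KO cultures A and C were above all WT cultures, and KO culture B was just below them. The difference was 0.18 (SE 0.18), or 0.31 without KO replicate B and 0.10 without KO replicate A. Rps6, the target of the S6 kinases, differed by -0.02 (SE 0.18). Rps14 and Rps19, whose loss causes anaemia in humans, differed by -0.04 (SE 0.16) and 0.02 (SE 0.17) at their brightest probes. Rps4x, of the X chromosome, differed by 0.02 (SE 0.17), the second Rps2 probe by 0.12 (SE 0.16) and the second Rps13 probe by -0.22 (SE 0.23). Omission of 1 array moved the third Rps24 probe between -0.83 (without WT replicate C) and -0.06 (without WT replicate B), and the second Rps13 probe between -0.41 and -0.07 under the same omissions.

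KO and WT values did not overlap for 6 of 72 probes (8.33%), against 8.14% of all tested probes. KO was higher for 1 of them (1.39%, against 2.84% of all tested probes), namely Rplp2. It was lower for 5 (6.94%, against 5.3%), namely Rpl22, Rpl24, Rpl26, Rpl32 and Rps7. The shares lie near the background, and the smallest of these differences, -0.07 for Rps7, was under its standard error of 0.15. Of 15 genes with at least 2 tested probes, 5 had differences of 1 sign at all tested probes and 10 did not.

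Within pairs, most ribosomal protein probes moved by little, and by unlike amounts in the 3 pairs. KO exceeded WT for 36 of 72 probes in pair A (50%, against 47.3% of all tested probes). In pair B it did for 14 (19.4%, against 45.5%), and in pair C for 44 (61.1%, against 44.5%). The median log2 differences in pairs A, B and C were -0.00, -0.08 and 0.10, against -0.02, -0.04 and -0.04 over all tested probes. With 1 array per genotype a pair allows no test.

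These counts depend on how arrays are scaled. When arrays were brought to a common median rather than to common quantiles, 18 of the 72 probes were higher in KO in pair A, whereas 35 were in B and 47 in C. Without any scaling the counts were 23, 0 and 51, and the median of all tested probes itself was at -0.34 in pair B. Relative to the median of all tested probes, the ribosomal protein median in pair B was -0.05 with quantiles and -0.04 with median scaling or none. In pair C it was 0.14 in each case, and in pair A it turned from 0.02 with quantiles to -0.06 with median scaling.

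**Figure D4:**
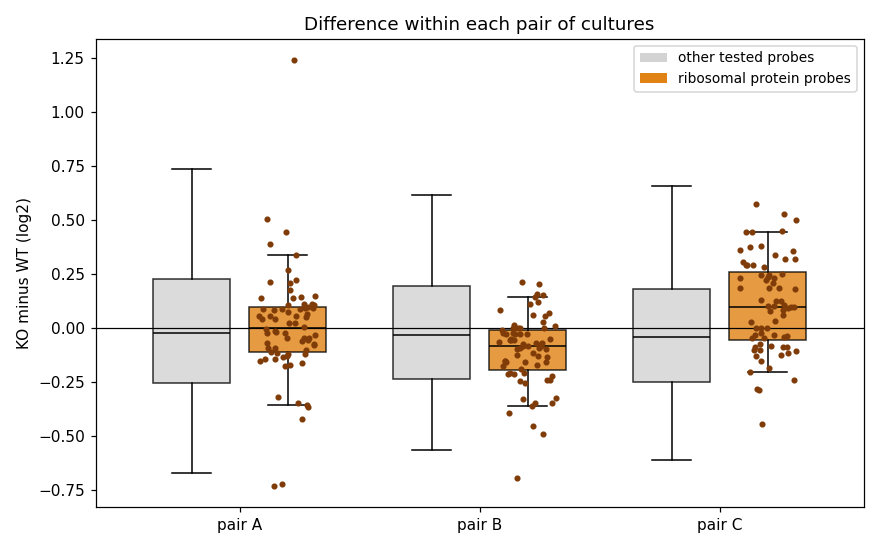
KO minus WT log2 difference within pairs A, B and C, for the 72 ribosomal protein probes (orange boxes, each probe a dot) and the other tested probes (grey boxes); lines mark medians, boxes the middle of the values from the lower to the upper quartile, and whiskers the 5th to the 95th percentile. The orange boxes are narrower than the grey ones, with medians of -0.00, -0.08 and 0.10, and the highest dot in pair A is the second Rpl38 probe.

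KO was above WT in all 3 pairs for 5 of 72 probes (6.94%, against 12% of all tested probes), namely Rpl19, Rpl37, Rps26, Rplp2 and the second Rpl38 probe. It was below WT in all 3 for 10 (13.9%, against 19.2%), which were probes of Rpl12, Rpl22, Rpl23, Rpl24, Rpl26, Rpl32, Rps7 and Rps24 and 2 of Rpl27a. The pair differences of Rpl22 were -0.72, -0.05 and -0.45 in A, B and C, those of Rplp2 0.14, 0.20 and 0.50, and those of the second Rpl38 probe 1.24, 0.11 and 0.32. Across the 72 probes the pair differences correlated by 0.24 for A and B, 0.22 for A and C and -0.26 for B and C. The points share their arrays and the normalisation, and probes of 1 gene are among them.

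Differences between the culture pairs, whatever the genotype, were rare among these probes. In limma's F test for the pair letter, 1 of 72 had an adjusted p under 0.05 (1.39%), against 6% of all tested probes. At an unadjusted p under 0.05 there were 2 (2.78%), against 26.9%. The probe that passed was the third Rps24 probe, for a small subunit protein needed for processing of the ribosomal RNA precursor. It read 6.56, 6.83 and 5.29 in WT and 6.20, 6.13 and 5.27 in KO, so that both cultures of pair C lay below the other cultures (adjusted p = 0.0418). The brightest Rps24 probe read 13.72, 13.72 and 13.61 in WT and 13.67, 13.62 and 13.72 in KO, with an F test adjusted p of 0.991. The call at the third probe was lost without WT replicate B, KO replicate B, WT replicate C or KO replicate C (adjusted p = 0.0673, 0.0687, 0.281 and 0.108), and on the authors' value table (adjusted p = 0.133).

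Rps15a, a small subunit protein with 1 probe on the array, was next. It read 6.66, 6.77 and 5.57 in WT and 6.31, 6.68 and 5.76 in KO, with pair C again lowest in both genotypes (limma F test adjusted p = 0.0535). Its KO minus WT difference was -0.08 (SE 0.38). The pair letter had the smallest F for Rpl10a, the brightest Rps24 probe, the second Rps2 probe and Rpl32.

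The other genes of ribosome production and translation are given by their brightest tested probe. Of all tested genes taken with 1 probe each, 48.2% had a KO minus WT difference above 0. Within pairs A, B and C, 5091, 4846 and 4784 of these 10419 genes were above 0, with medians of -0.01, -0.03 and -0.03. The pair counts of the lists are given with quantile scaling only, and such counts depend on the scaling, as above. In limma the adjusted p was under 0.05 for 0 genes of each of these lists, with or without the replicate block, against 0.0167% and 0.0223% of all tested probes. Of 17 translation factors and other genes with pyrimidine tracts, 8 were above 0 and 9 below, with a median of -0.03. The median was 0.04 within pair A, -0.27 within B and 0.08 within C, and 2 of 17 were above 0 in pair B. Eef2, the factor that moves the ribosome along the mRNA, read 11.17, 11.26 and 11.15 in WT and 10.84, 10.95 and 10.76 in KO. All KO cultures lay below all WT cultures, and the difference was -0.34 (SE 0.16), with limma adjusted p = 1.0. Eif4b, a helper of the initiation helicase, differed by -0.35 (SE 0.20), Btf3, a part of the nascent chain complex, by -0.22 (SE 0.16), and the histone chaperone gene Nap1l1 by 0.47 (SE 0.37).

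Of 71 mitochondrial ribosomal protein genes, which serve the separate ribosomes of mitochondria, 44 were above 0 and 27 below, with a median of 0.04. Within pair A 58 of them were higher in KO, within B 21 and within C 43, with medians of 0.24, -0.13 and 0.07. The lowest p belonged to Mrps15, at 0.36 (SE 0.20), and to Mrpl21, at 0.36 (SE 0.20), Mrpl34, at 0.52 (SE 0.34), and Mrpl4, at 0.28 (SE 0.20). Of 36 genes for ribosome assembly and ribosomal RNA processing, 7 were above 0 and 29 below, with a median of -0.13. Within pair A 8 of them were above 0, within B 9 and within C 21, with medians of -0.24, -0.23 and 0.04. Here 9 of 36 genes (25%) passed the F test for the pair letter, against 665 of 10419 tested genes taken with 1 probe each (6.38%). The assembly factor gene Bop1 differed by -0.45 (SE 0.33), Lsg1, a GTPase of late large subunit assembly, by -0.29 (SE 0.31), and Nhp2 and Nop10, of the particles that modify ribosomal RNA, by 0.34 (SE 0.21) and 0.19 (SE 0.22).

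Of 16 genes of RNA polymerase I and its factors, 6 were above 0 and 10 below, with a median of -0.05. Taf1d, a part of its promoter factor, had the smallest p and differed by 0.35 (SE 0.23). The genes with the next smallest p were all lower in KO. They were Znrd1, at -0.18 (SE 0.17), Taf1a, at -0.43 (SE 0.43), and Cd3eap, at -0.33 (SE 0.36). Of 19 genes by which mTOR and MYC control ribosome production, 4 were above 0 and 15 below, with a median of -0.14. The list mixes activators with inhibitors, so this count gives no single direction for ribosome production. Akt1s1, an inhibitor in the mTOR complex, differed by 0.43 (SE 0.19), Eif4ebp2, which holds the cap-binding protein, by 0.47 (SE 0.29), and Max, the partner of MYC, by -0.42 (SE 0.32). Of the tested ribosomal protein genes with other names, Rps3a1 differed by 0.04 (SE 0.17) and Rpl7l1 by -0.16 (SE 0.28).

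Marker genes of growth and of the cell types the cultures could hold are given beside these values. Of 21 proliferation genes 21 were above 0, with a median of 2.02 in pair A, -0.33 in B and 0.64 in C. Their summed level ranged from 1870 to 4739 in WT and from 2064 to 7260 in KO, on the linear normalised scale. Of 17 fibroblast and stromal genes 16 were above 0, with sums of 10946 to 11964 in WT and 11969 to 20010 in KO. The lowest KO sum and the highest WT sum were those of pair B, so that pair hardly differed. Their median within the pair was 0.92 in A, 0.09 in B and 1.32 in C. In limma 10 of the 17 had an unadjusted p under 0.05, against 3.03% of all tested probes, and 0 an adjusted p under 0.05. Of 14 epithelial genes 2 were above 0, with sums of 41688 to 52687 in WT and 36488 to 39606 in KO. The sums weigh the brightest genes most, and the genes did not move together. Within pairs A, B and C, 4, 5 and 5 of the 14 were above 0, with medians of -0.46, -0.20 and -0.13. Trp63 and Krt5 differed by 2.07 and 1.32 in pair A and by -0.51 and -0.99 in B. Cldn4 and Krt7 differed by -1.23 and -1.54 in A and by -0.17 and 0.01 in B. In limma 0 of the 14 had an unadjusted p under 0.05. Of 9 endothelial genes 9 were above 0, with sums of 5013 to 6412 in WT and 4972 to 11676 in KO, the highest being KO culture B, where the median within the pair was 1.0. Of 8 macrophage and leukocyte genes 7 were above 0, with sums of 3424 to 6039 in WT and 4588 to 8462 in KO. The KO sum lay below that of WT in pairs A (5666 and 6039) and B (4588 and 4878). Cd14 weighs most in these sums, as the brightest of the 8 genes in both pairs. It read 12.22 and 11.93 in WT cultures A and B and 12.09 and 11.73 in KO. Its difference of -0.19 (SE 0.59) was the only one below 0, so the lower sums give no common direction for the list. In pair C the KO sum lay above (8462 and 3424). KO exceeded WT for 4 of the 8 genes in A, 4 in B and 6 in C. Ptprc and Kdr, defining markers of leukocytes and endothelium, did not meet the detection rule. The part of these differences in the ribosomal protein values was not tested.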

How the data were processed

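The deposited intensity of a probe is its raw brightness, not normalised, and the deposited detection p-value compares a probe with negative control beads, per the file headers. The authors' value table, on a log2 scale with equal quantiles in each column (median 6.75), served as an alternative; its low end is raised by a transform for which no source used here gives the method. The submitters' processing notes name GenomeStudio and lumi. Intensities were corrected from the detection p-values, given an offset of 16, quantile normalised and put on a log2 scale as in neqc of limma 3.58.1 in R 4.3.3. Probes with detection p under 0.05 on at least 3 arrays were tested per probe with lmFit and eBayes, two-sided, without a pair term, with Benjamini-Hochberg adjustment over all 17920. Names came from the platform annotation, with symbols updated from the GRCm38.p6 gene table: 34885 probes had 1 symbol, 18 several, and 10378 are unnamed here. The number of array columns with no sample was 0. Related lists use 1 probe per gene, the brightest. The test was tried on simulated data.

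Pair letters come from the titles, and the extraction label mentions paired cultures. Deviations from the group means correlated between the WT and KO arrays of a letter by 0.352 for A, 0.490 for B and 0.720 for C, so the letters were taken to pair the samples, although WT A with KO B gave 0.423. All arrays lie on 1 chip per the labels, so no batch was split. Alternatives were the replicate block, other background, scaling, offset, detection and eBayes settings, array weights, 1 probe per gene, omission of each array, and pairs A and B only. Named probes were those past a threshold, the extremes of difference, level and pair F, and a set of well-known genes; of each related list, up to 4 genes with the smallest p. The members, lists and tests were chosen with earlier results of these data known.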

Additional observations from a re-analysis of the deposited data

How the results depend on the processing

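In all 18 alternatives 0 ribosomal protein probes had an adjusted p under 0.05 for KO against WT in limma, and the median log2 difference stayed between -0.04 and 0.02 except without scaling between arrays, where it was -0.11, as was that of all tested probes. The pair letter as a replicate block changed no call of a ribosomal protein probe: 0 passed adjusted and 0 unadjusted, with a median of -0.01. The number with an unadjusted p under 0.05, 0 in the fit reported, was 1 on the authors' value table, without background correction, with an offset of 50, without a detection filter and with trend and robust settings (Rplp2 in each), and 1 without scaling (Rpl22). It was 4 with array weights (Rpl22, Rpl29, Rpl38 and Rps24) and 2 with pairs A and B only (Rpl29 and Rps24). It ranged from 0 to 3 when 1 array was omitted, reaching 3 without KO replicate B (Rpl13a, Rpl22 and Rpl38) and 2 when WT replicate C was omitted (Rpl29 and Rps24). The number past the F test for the pair letter was 1 as reported, against 6% of all tested probes. It was 0 on the authors' value table (0.541% of all tested probes), without background correction (0.921%) and without scaling (4.9%). With an offset of 50 (3.04%) and without a detection filter (0%) it was also 0. The same held with 1 probe per gene (5.18%), where the third Rps24 probe was not among those tested. It was 2 (Rps15a and Rps24) under the stricter detection rule (p under 0.01 on all 6 arrays, 9.96%) or with array weights (7.83%). When 1 array was omitted it ranged from 0 to 2, against 1.03% to 8.86% of all tested probes. The third Rps24 probe lost that call in 9 of these alternatives, and the cause was not tested.

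The count over all tested probes at an unadjusted p under 0.05, 543 as reported, was 1448 with the replicate block, 1841 with array weights, 1797 without a detection filter, 1002 with pairs A and B only, 911 without WT replicate C, 1132 without KO replicate B, 254 without WT replicate A and 248 without WT replicate B. Those past the adjusted threshold, 3 as reported, numbered 0 to 5 over the settings. Of 549 values of named probes under an alternative, 544 stayed within the spread of replicates, and the others were the second Rps13 probe with array weights (-0.45), the second Rpl38 probe without KO replicate B (0.91), and, when WT replicate C was omitted, the third Rps24 probe (-0.83), the second Rpl29 probe (-0.65) and Rps15a (-0.46). Signal over background limits the values of the dimmest probes, and 3 arrays per genotype limit all of them.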
